A study of Mus musculus with 5 samples.

Results

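Stretches of the histone mark H3K4me1 were examined in cultured mouse marrow cells that carry Hoxa9 and Meis1 retroviruses. They rest on 1 chromatin immunoprecipitation sequencing library, and the regions were chosen by position alone: all rows of the H3K4me1 list that lie on the 19 autosomes. These are 99004 of 100189 H3K4me1 regions, out of 166982 rows in the 4 peak lists used. Regions with 1 kb or less of free sequence between them were joined into stretches, which gave 60862 stretches. Stretches with 12500 bp or less between them were then linked into chains, which gave 20331 chains.

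All libraries came from lineage-depleted marrow of C57B6 mice, put into culture with IL3 after transduction with 2 retroviruses, MIGR1-HA-Hoxa9 together with MIGR1-Flag-Meis1. The labels call the cells hematopoietic progenitor cells. The other 3 lists were Hoxa9 (precipitated through its HA tag), C/EBPα and H3K27me3, and an input library was not analysed here. Every library carries both transgenes, so no value compares transformed with untransformed cells, and Hoxa9 binding is that of the tagged retroviral protein. The number of mice or cultures is not given in the sources used here. With 1 library behind each list, values have no replicate error and no difference below was tested. Intervals are at 95%, exact, and cover counting error only. Neighbouring regions and summits share a library and are not independent, so the true uncertainty is wider than these intervals.

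H3K4me1 is monomethylation of histone H3 at a lysine of its tail. It is laid down largely by methyltransferases of the MLL family and marks enhancers, both active and poised, as well as the flanks of active promoters. At an occupied enhancer the transcription factor sits in a short stretch of DNA with few nucleosomes, and the mark lies on the nucleosomes to either side. Enhancers that follow one another at short distances are commonly linked when large enhancer clusters are sought. Hoxa9 is a homeodomain factor that is high in stem cells and in many myeloid leukemias. Meis1 binds DNA together with it, and C/EBPα is needed for the granulocyte and monocyte lineages.

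H3K4me1 was called mostly as narrow regions, with a tail of wide ones. The middle region was 773 bp wide, the middle 50% ran from 485 to 1413 bp, and the widest was 25667 bp. A region held between 14 and 3483 tags, with a median of 32. Divided by width, this was a median of 0.0407 tags per bp, and 90% of regions lay between 0.0316 (the 5th percentile) and 0.0666 (the 95th). The 5th percentile of tags was itself 14, the fewest in any region, so the list ends abruptly at its weak side. Only 9 regions held 0.5 or more tags per bp.

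Regions often followed each other closely. Of 98985 gaps between neighbours on a chromosome, 38142 were 1 kb or less, and the median over all gaps was 2056 bp. Gaps under 100 bp made up 10.8% of all gaps, gaps of 100 to 200 bp 6.65%, gaps of 200 to 500 bp 11.7% and gaps of 500 to 1000 bp 9.40%. Here and below a class includes its lower bound and not its upper one, save that gaps of exactly 1000 bp are in the last of these. No step in the number of gaps marked the limits used for joining. There were 1485 gaps in the 100 bp just inside the 1 kb limit and 1342 in the 100 bp just outside. For chains, 571 gaps lay in the 500 bp just inside the limit of 12500 bp and 562 in the 500 bp just outside.

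Joining took in most regions. In stretches of 2 or more regions lay 60053 regions, or 60.7% (60.35 to 60.96), although only 21911 of the 60862 stretches (36.0%) were of this kind. These joined stretches held 67.5% of the total stretch span and 65.9% of the tags. Stretches of 1 region numbered 38951, those of 2 regions 13461 and those of 3 regions 4724, and 961 stretches had 6 or more. Stretch span had a median of 1276 bp, a 95th percentile of 6860 bp and a maximum of 87301 bp. In total the stretches spanned 130.554 Mb, of which 11.9939 Mb (9.19%) was free sequence inside closed gaps.

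**Figure D1:**
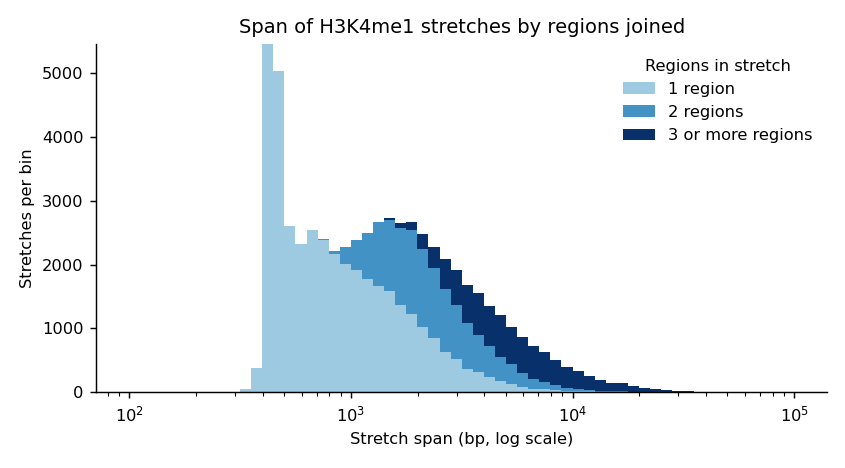
Number of stretches (vertical axis) in bins of span (horizontal axis, bp, log scale), stacked by the number of regions joined in each stretch. Stretches of 1 region have a median of 743 bp and are most numerous between 398 and 501 bp, whereas stretches of 2 regions have a median of 2109 bp and those of 3 have 3687 bp.

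Longer stretches were also more densely marked. Median tags per bp of covered sequence rose through the classes of span, from 0.0336 under 500 bp to 0.0438 at 1000 to 2000 bp, 0.0562 at 5000 to 10000 bp and 0.0617 at 10000 bp or more. The highest fold enrichment of any region in the stretch had medians of 3.75 and 10 in the shortest and the longest class. That value is a maximum over the regions of a stretch, and longer stretches held more regions. No correction for their number was made. Across stretches, span and tags per bp gave Spearman's rho = 0.737 (n = 60862 stretches of 1 library). Both measures come from the same calls. The class of 10000 bp or more held 1339 stretches, 2.20% of the number and 15.4% of the span.

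The widest stretch held no factor summit. It lay at chr8:126061112-126148412 (mm9), and spanned 87.301 kb in 11 regions. It was covered to 100% by an H3K27me3 region, in which the H3K27me3 library had 0.680 tags per bp, and its own H3K4me1 density was 0.0800 tags per bp. The median over H3K27me3 stretches, joined in the same way, was 0.0603 tags per bp. None of the next 7 met an H3K27me3 region, and all 7 held C/EBPα summits.

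The other wide stretches were bound. The stretch at chr5:136954231-137003550 spanned 49.32 kb in 17 regions, with 3 Hoxa9 and 3 C/EBPα summits. On chromosome 7, a stretch at chr7:142755278-142803040 spanned 47.763 kb with 4 Hoxa9 and 5 C/EBPα summits, and a neighbour in the same chain of 8 stretches, at chr7:142818664-142861315, spanned 42.652 kb with 2 and 4. The stretch at chr12:109851511-109897638 spanned 46.128 kb and held 5 Hoxa9 and 4 C/EBPα summits. At chr14:26281095-26326730 the span was 45.636 kb, with 0 Hoxa9 and 4 C/EBPα summits. The stretch at chr3:27562204-27607393 (45.19 kb) held 3 Hoxa9 and 6 C/EBPα summits. The most finely divided of the 8, at chr1:129103929-129147371, was made of 25 regions, the most in any stretch, and held 1 and 3 summits.

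The highest tag densities were found in a few places. Among stretches of 2 kb or more the densest lay at chr2:98502210-98507664, with 1.61 tags per bp over 4 regions and a top fold enrichment of 3.21. The next, at chr15:74915712-74917849, had 0.884 tags per bp and a fold enrichment of 2.06. A stretch near the start of chromosome 17, chr17:3076696-3085721, had 0.240 tags per bp and a fold enrichment of 2.97. These 3 fold enrichments lay below the medians of their span classes, which were 6.67 at 2000 to 5000 bp and 8.42 at 5000 to 10000 bp. The remaining 2 of the 5 densest lay at chr1:172989593-173016343 (0.151 tags per bp, 84.3% covered by H3K27me3 regions of 0.550 tags per bp) and chr6:47686962-47723518 (0.136 tags per bp). Their top fold enrichments, 9.29 and 4.42, were also below the median of their span class, which was 10 at 10000 bp or more. None of the 5 held a Hoxa9 summit, and 4, 0, 0, 5 and 2 C/EBPα summits lay in them in this order.

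Set against these H3K4me1 stretches, 5093 of 6447 autosomal Hoxa9 summits lay inside a stretch, 79.0% (78.0 to 80.0). For C/EBPα it was 17816 of 25877, or 68.8% (68.3 to 69.4). Stretches took up between 3.52% (chromosome 3) and 8.88% (chromosome 11) of an autosome, measured to its last row. A further 6.05% of Hoxa9 and 10.6% of C/EBPα summits lay inside a chain but between its stretches, and 14.95% and 20.6% lay outside all chains. Over the total stretch span this was 0.0390 Hoxa9 summits per kb (0.0379 to 0.0401) and 0.136 C/EBPα summits per kb (0.134 to 0.138). The lists differ in length, so these 2 densities say nothing of which factor prefers the mark.

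Most stretches held neither factor. A Hoxa9 summit was present in 7.5% of the 60862 stretches, a C/EBPα summit in 23.9% and both in 5.55%. From the side of Hoxa9, 3377 of its 4565 stretches also held C/EBPα, 74.0% (72.7 to 75.2). From the side of C/EBPα, 3377 of 14559 stretches also held Hoxa9, 23.2% (22.5 to 23.9). Stretches with both factors had a median span of 4567 bp and 0.0552 tags per bp. Stretches with C/EBPα alone had 2474.5 bp and 0.0495 tags per bp, those with Hoxa9 alone 2530.5 bp and 0.0490, and those with neither 956 bp and 0.0397.

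A wide stretch has more room for summits, so bound and unbound stretches were also set side by side within classes of span. From 2000 to 5000 bp, stretches with both factors had a median of 0.0533 tags per bp, against 0.0515 with C/EBPα alone, 0.0515 with Hoxa9 alone and 0.0476 with neither. From 5000 to 10000 bp the values were 0.0579, 0.0570, 0.0550 and 0.0537 in the same order. Under 500 bp they were 0.0332, 0.0335, 0.0336 and 0.0336. From 500 to 1000 bp they were 0.0400, 0.0402, 0.0399 and 0.0386. Each kind of bound stretch thus had a higher median than unbound ones in these classes from 500 bp upwards, by small amounts, and not under 500 bp, where only 12 stretches held both factors. From 500 bp upwards, bound stretches were also longer than unbound ones within each class. At 2000 to 5000 bp, median spans were 3255, 3054, 3012 and 2748 bp in the same order. Under 500 bp, they were 436.5, 446, 448 and 445 bp. The part of span in these differences of tags per bp was not tested.

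Summit density rose with mark density as well. With stretches divided into 5 equal groups by tags per bp, Hoxa9 had 0.0161, 0.0222, 0.0284, 0.0387 and 0.0498 summits per kb from the lowest to the highest group. C/EBPα had 0.0914, 0.103, 0.122, 0.139 and 0.154. Both factors rose at each step. Among stretches of 2000 to 5000 bp, Hoxa9 went from 0.0293 (0.0265 to 0.0323) in the least marked of 3 groups to 0.0546 (0.0510 to 0.0584) in the most marked, and C/EBPα from 0.106 (0.100 to 0.111) to 0.174 (0.167 to 0.180). Under 500 bp the intervals of these groups overlapped for both factors, with Hoxa9 at 0.00870 and 0.0113 and C/EBPα at 0.0901 and 0.0989. For Hoxa9 alone they also overlapped at 500 to 1000 bp (0.0139 and 0.0184) and, narrowly, at 1000 to 2000 bp (0.0258 and 0.0336). In stretches of 10000 bp or more the intervals of the least and most marked groups overlapped for both factors: Hoxa9 had 0.0450 (0.0398 to 0.0507) and 0.0401 (0.0356 to 0.0449), and C/EBPα 0.126 (0.117 to 0.135) and 0.132 (0.124 to 0.141).

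The factors differed in how their density varied with span. Hoxa9 density climbed from 0.0116 summits per kb (0.00880 to 0.0151) in stretches under 500 bp to 0.0442 (0.0422 to 0.0462) at 2000 to 5000 bp, and was then nearly level, with 0.0472 and 0.0442 in the 2 longer classes. C/EBPα density was 0.0911 under 500 bp and 0.128 at 500 to 1000 bp, and lay between 0.130 and 0.143 in all longer classes. In terms of presence, 0.519% of stretches under 500 bp and 45.9% of those of 10000 bp or more held a Hoxa9 summit. For C/EBPα these shares were 4.06% and 88.0%. Of the 1339 longest stretches 43.7% held both factors and 9.86% neither.

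By number of regions, Hoxa9 had 0.0333 summits per kb in stretches of 1 region, and between 0.0365 (5 regions) and 0.0430 (2 regions) in all classes of more regions. C/EBPα density fell along the same classes, from 0.150 (0.147 to 0.154) in stretches of 1 region to 0.137 with 2, 0.130 with 3 and 0.116 (0.110 to 0.122) with 6 or more.

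Crowding of stretches went with fewer summits per kb. Stretches that stood alone in their chain numbered 9410, and they had 0.0490 Hoxa9 summits per kb (0.0452 to 0.0531). Stretches in chains of 2 to 4 had 0.0474, those in chains of 5 to 9 had 0.0372, and the 15541 stretches in chains of 10 or more had 0.0315 (0.0299 to 0.0332). C/EBPα went from 0.176 (0.168 to 0.183) through 0.151 and 0.133 to 0.118 (0.114 to 0.121). The ratio between lone and most crowded stretches was 1.56 (1.41 to 1.71) for Hoxa9 and 1.49 (1.42 to 1.57) for C/EBPα. The mark went the other way: median tags per bp rose over the same classes, from 0.0392 in lone stretches to 0.0450 in the most crowded, and median span from 895 to 1705 bp.

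Since crowded stretches were longer, the comparison was repeated within classes of span, where it was larger for narrow stretches. At 1000 to 2000 bp, lone stretches had 0.0501 Hoxa9 summits per kb and the most crowded 0.0143, a ratio of 3.50 (2.67 to 4.62). The C/EBPα ratio in this class was 1.90 (1.70 to 2.13). At 2000 to 5000 bp the ratios were 2.09 (1.79 to 2.45) and 1.41 (1.29 to 1.53), and at 5000 to 10000 bp 1.66 (1.28 to 2.12) and 1.31 (1.13 to 1.52). At 10000 bp or more both intervals included 1, with 1.21 (0.700 to 1.96) for Hoxa9 from only 25 lone stretches. H3K27me3 moved with crowding as well. It met 18.4% of lone stretches, 9.34% of those in chains of 2 to 4, 5.87% in chains of 5 to 9 and 3.93% in chains of 10 or more, against 8.41% of all stretches. Among stretches that met no H3K27me3 region, the ratios over all spans were 1.73 (1.57 to 1.91) for Hoxa9 and 1.68 (1.60 to 1.77) for C/EBPα. In chains without any H3K27me3 contact they were 1.58 (1.42 to 1.75) and 1.63 (1.54 to 1.72), and at 1000 to 2000 bp 3.39 (2.52 to 4.63) and 2.17 (1.91 to 2.47). At 5000 to 10000 bp in such chains they were 1.39 (1.06 to 1.81) and 1.27 (1.08 to 1.49), below the values over all chains, with overlapping intervals. The part of H3K27me3 in the difference was not tested.

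**Figure D2:**
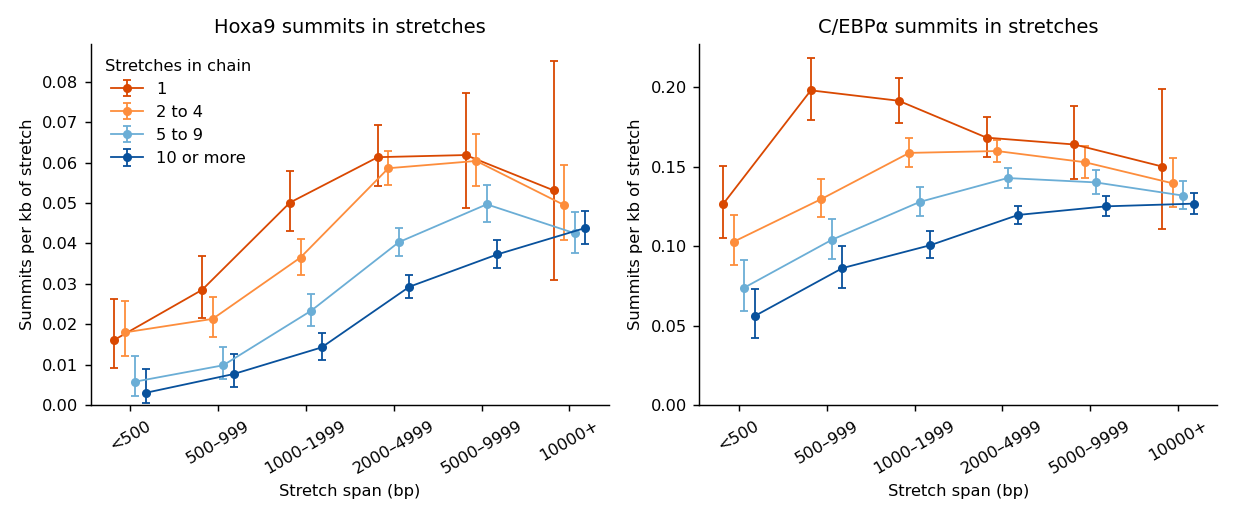
Summits per kb of stretch (vertical axis, from 0) for Hoxa9 (left) and C/EBPα (right) in 6 classes of stretch span (horizontal axis, bp), with 1 line for each number of stretches in the chain; bars are exact 95% Poisson intervals. Lone stretches lie above those in chains of 10 or more in each class, with 0.0501 against 0.0143 for Hoxa9 at 1000 to 2000 bp, and the intervals overlap at 10000 bp or more.

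Inside a stretch, the factors lay towards the middle. Stretches of 2000 to 5000 bp were divided into 5 parts of equal length from the edges to the centre, taking both ends together. Hoxa9 had 0.00831 summits per kb (0.00652 to 0.0104) in the outermost part, then 0.0187, 0.0412 and 0.0694, and 0.0832 (0.0773 to 0.0894) at the centre. C/EBPα went from 0.0437 (0.0394 to 0.0482) to 0.223 (0.213 to 0.233), rising at each step from edge to centre. In stretches of 5000 bp or more only the outer parts were poor. Hoxa9 had 0.0160 and 0.0414 in the 2 outer parts and 0.0581, 0.0554 and 0.0587 in the 3 inner ones, and C/EBPα had 0.0765 and 0.140 followed by 0.155, 0.152 and 0.149.

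The closed gaps between joined regions held 599 Hoxa9 and 1315 C/EBPα summits. Their density depended on gap length. For Hoxa9 it was 0.0800 summits per kb (0.0566 to 0.110) in gaps under 100 bp, 0.0828 (0.0656 to 0.103) at 100 to 200 bp, 0.0732 (0.0649 to 0.0823) at 200 to 500 bp and 0.0299 (0.0259 to 0.0343) at 500 to 1000 bp. The called regions of the same joined stretches had 0.0404. For C/EBPα the values were 0.183, 0.179, 0.147 and 0.0734, against 0.133 in the regions. Over all gaps under 500 bp, summits had 1.87 times (1.68 to 2.07) the density of the called regions of all joined stretches for Hoxa9 and 1.17 times (1.09 to 1.26) for C/EBPα. The size of these ratios depends on which regions are kept. They were 3.52 (3.07 to 4.03) and 2.17 (1.96 to 2.39) with the upper 50% of regions by score. With regions of at least 10-fold enrichment they were 8.79 (4.05 to 17.1) and 4.94 (2.83 to 8.08), with wide intervals. Under these 2 settings a gap can hold called regions that were left out, so it is not always free sequence. Gaps of 500 to 1000 bp were sparser than the called regions for both factors. Closed gaps lie only inside a stretch, whereas called regions include its edges, where both factors were sparser than at the centre. The central part of stretches of 2000 to 5000 bp had 0.0832 Hoxa9 and 0.223 C/EBPα summits per kb. Position within the stretch was not matched in these ratios or in those that follow.

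Over all closed gaps the ratio to the regions was 1.23 (1.13 to 1.35) for Hoxa9 and 0.825 (0.778 to 0.874) for C/EBPα. These pooled values depend on which gaps are closed and change direction with it: with a joining limit of 2 kb the Hoxa9 ratio was 0.668, and with a limit of 0.5 kb the C/EBPα ratio was 1.15. In stronger H3K4me1 regions, the upper 50% by score, the C/EBPα ratio was 1.30. The ratios were also taken apart by the company of the summit. Hoxa9 summits with a C/EBPα summit within 200 bp had a ratio of 1.55 (1.38 to 1.73), and the rest 0.899 (0.774 to 1.04). C/EBPα summits with Hoxa9 within 200 bp had 1.55 (1.39 to 1.73), and the rest 0.690 (0.644 to 0.738). Scores were higher in company: 1691 of 2688 Hoxa9 summits with C/EBPα nearby were in the upper 50% by score, against 1193 of 2405 without, and 2026 of 2689 C/EBPα summits with Hoxa9 nearby, against 8194 of 15127. Among Hoxa9 peaks in the upper 50% by score, the ratio was 1.77 (1.54 to 2.02) with C/EBPα nearby and 1.13 (0.935 to 1.37) without. For C/EBPα peaks in the upper 50% these were 1.72 (1.52 to 1.95) and 0.737 (0.673 to 0.806).

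The gaps that held summits were longer than the empty ones. The 341 gaps with both factors had a median of 439 bp, the 258 with Hoxa9 alone 297 bp, the 974 with C/EBPα alone 381.5 bp and the 36569 with neither 226 bp. A longer gap has more room for a summit, and no correction for length was made here. The regions flanking a gap with both factors had a median of 0.0504 tags per bp, against 0.0432 beside empty gaps.

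The points of highest H3K4me1 signal, 1 summit per region, were arranged differently around Hoxa9 and C/EBPα. Around Hoxa9 summits in stretches, H3K4me1 summits were found at 0.355 per kb (0.319 to 0.394) within the first 100 bp, rose to 0.662 (0.613 to 0.714) between 400 and 500 bp, and fell to 0.228 between 1900 and 2000 bp. Around C/EBPα summits the value was highest in the first 100 bp, 0.659 (0.633 to 0.687), and was 0.576 between 400 and 500 bp. The C/EBPα profile differed between summits with and without Hoxa9. For the 2689 C/EBPα summits with Hoxa9 within 200 bp it began at 0.249 (0.208 to 0.295) and reached 0.718 (0.648 to 0.793) between 500 and 600 bp. For the 15127 others it began at 0.732 (0.702 to 0.764), its highest value, and was 0.556 between 400 and 500 bp.

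The difference was also present among strong peaks. Among C/EBPα peaks in the upper 50% by score, H3K4me1 summits within the first 100 bp stood at 0.206 per kb (0.164 to 0.255) with Hoxa9 nearby and at 0.594 (0.557 to 0.633) without. That of summits without Hoxa9 was flat near the summit, with 0.598 between 400 and 500 bp, unlike the one over all scores. For Hoxa9 peaks in the upper 50% the same values were 0.193 (0.149 to 0.246) with C/EBPα nearby and 0.316 (0.248 to 0.396) without. Each region has 1 summit, so these profiles describe called summits and not signal. In a narrow region that summit must lie close to any factor summit inside it. Stretches with both factors had a median span of 4567 bp, against 2474.5 bp with C/EBPα alone and 2530.5 bp with Hoxa9 alone. Width was not matched in these profiles, and its part in the difference was not tested.

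**Figure D3:**
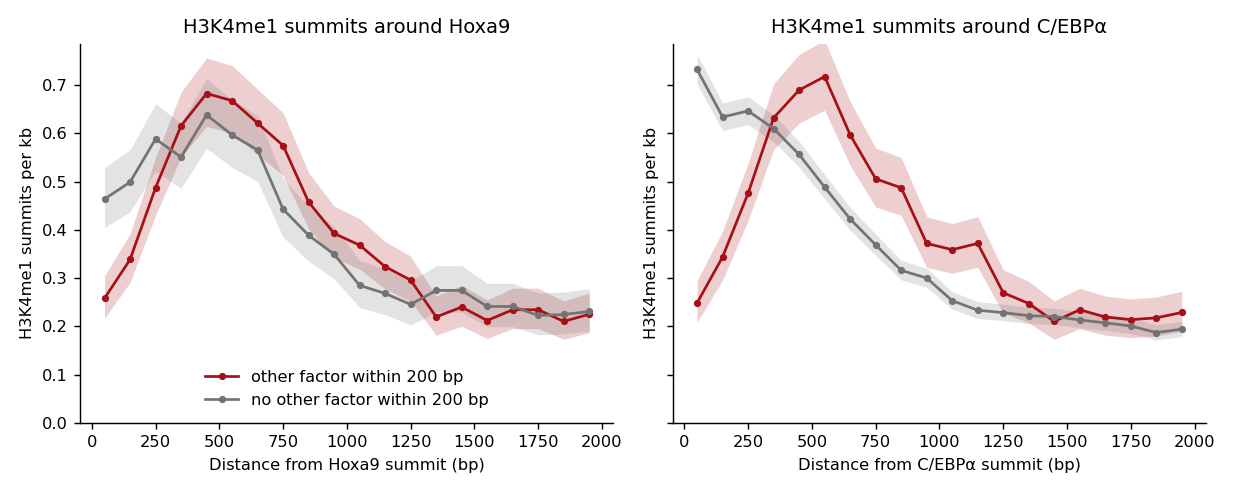
H3K4me1 region summits per kb (vertical axis) at increasing distance, both sides together, from Hoxa9 (left) and C/EBPα (right) summits inside stretches (horizontal axis, bp, bins of 100 bp); shading is the exact 95% Poisson interval. Summits with the other factor within 200 bp start low, at 0.258 for Hoxa9 and 0.249 for C/EBPα, and C/EBPα summits without Hoxa9 nearby start at 0.732.

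Stronger factor peaks were more often found in stretches. In 5 groups of Hoxa9 peaks from the lowest to the highest score, 55.5%, 63.9%, 75.8%, 77.8% and 75.5% of summits lay in a called region. The share in closed gaps rose throughout, from 4.34% to 16.1%, and the share outside all chains fell from 31.6% to 3.26%. For C/EBPα the share in regions went from 53.3% in the lowest group to 76.6% in the highest, in closed gaps from 3.07% to 9.12%, and outside chains from 30.9% to 5.53%. The strongest Hoxa9 summits lay in stretches with a median span of 5509.5 bp, against 3875.5 bp for the weakest, and the C/EBPα values were 4414 and 3255 bp.

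Several summits of a factor in 1 stretch were uncommon. Hoxa9 had 2 or more summits in 442 stretches (0.726% of all stretches) and 3 or more in 68, and C/EBPα in 2377 (3.91%) and 627. At least 1 summit was held by 4565 stretches for Hoxa9 and 14559 for C/EBPα. Neighbouring Hoxa9 summits of a stretch were a median of 2840.5 bp apart (10th to 90th percentile 916 to 7931.6 bp), and C/EBPα summits 2361 bp (919.6 to 6394.8 bp). These distances cannot exceed the span of the stretch, and no correction for span was made.

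The stretch with most summits of both factors together lay at chr2:126280721-126314802, spanning 34.082 kb in 13 regions with 3 Hoxa9 and 8 C/EBPα summits. In all, 8 stretches held 9 or more. The next 4, with 9 each and ties taken by position, were 3 of the widest stretches named above, on chromosomes 3, 7 and 12, and a stretch at chr7:133793585-133820192 that spanned 26.608 kb with 4 Hoxa9 and 5 C/EBPα summits. After the stretch on chromosome 8, the longest without any summit lay at chr4:88418021-88445214 (27.194 kb in 20 regions, 0.0498 tags per bp) and chr2:35114514-35138742 (24.229 kb in 7 regions, 0.0607 tags per bp). Neither of these met H3K27me3, and their chains held 15 and 33 stretches.

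H3K27me3 met 8.41% of all stretches. The share was 9.91% (9.63 to 10.2) of stretches without either factor, 5.13% (3.95 to 6.55) with Hoxa9 alone, 4.11% (3.75 to 4.50) with C/EBPα alone and 3.82% (3.20 to 4.52) with both. By span it was highest, 10.6%, at 1000 to 2000 bp and lowest, 2.32%, at 10000 bp or more, although a longer stretch has more room to meet another region. Among stretches of 2000 to 5000 bp it was 10.8% with neither factor and 4.81% with both. The order was not the same in all classes of span. At 10000 bp or more the share was 3.03% with neither, 3.37% with C/EBPα alone, 3.45% with Hoxa9 alone and 1.03% with both. Under 500 bp it was 7.15%, 1.64%, 4.55% and 8.33% in the same order, the last from 12 stretches.

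Linking stretches into chains left many alone. Of the 20331 chains 9410 (46.3%) were a single stretch, which accounted for 15.5% of stretches, whereas 1074 chains of 10 or more took in 25.5%. Chains of 2 or more stretches spanned a median of 16529 bp. Neighbouring stretches of a chain were a median of 3479 bp apart, and stretches filled 41.7% of the total chain span of 312.842 Mb. Chains of 100000 bp or more numbered 408, or 2.01%, and carried 22.0% of the tags.

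The H3K27me3 list, joined and chained in the same way, had fewer and more compact chains. Of its 29566 autosomal regions 55.1% were joined, giving 19354 stretches of median span 1539 bp and 9639 chains, of which 62.7% were a single stretch. Stretches filled 60.5% of its chain span, against 41.7% for H3K4me1. The lists come from different antibodies, their depths are unknown, and the difference was not tested.

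The longest H3K4me1 chain lay at chr2:167435043-167850144, spanned 415.102 kb and linked 51 stretches, with 3 Hoxa9 and 18 C/EBPα summits. The next were at chr13:96453714-96772206 (318.493 kb, 33 stretches, 8 and 18 summits) and chr10:92501129-92819484 (318.356 kb, 41 stretches, 5 and 25 summits). The chain at chr1:172750068-173053414 spanned 303.347 kb with 4 and 28 summits and contains the dense stretch on chromosome 1 described above. The other 4 of the 8 longest, at chr7:87438310-87738152, chr8:122799933-123097618, chr4:131925984-132214359 and chr17:4980827-5265645, spanned 284.819 to 299.843 kb and held 2 to 4 Hoxa9 and 11 to 16 C/EBPα summits. In these 8 chains stretches filled 37.1% to 51.6% of the span.

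The chain with most summits was not among the longest. It lay at chr11:83322146-83536841, spanned 214.696 kb in 31 stretches, and held 12 Hoxa9 and 24 C/EBPα summits, all but 1 of the Hoxa9 summits inside stretches. The chain at chr6:38691355-38942991 (251.637 kb) followed the chromosome 1 and 10 chains in number of summits, with 4 and 22, and the chromosome 13 chain completed the first 5. Neither the chromosome 11 nor the chromosome 6 chain met an H3K27me3 region.

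A small share of chains carried much of the mark. The 1017 chains of the highest 5% by tags, each with 1365 or more, held 41.3% of the tags and 37.0% of the stretch length. They held 31.3% of the Hoxa9 and 32.2% of the C/EBPα summits that lay in stretches, a lower share than of length. In the highest 1% (203 chains) the shares were 14.95% of tags, 12.7% of length, 9.62% of Hoxa9 and 10.3% of C/EBPα summits. Even so, 71.6% of the highest 5% contained both factors and 0.295% neither, against 16.2% and 52.0% of all chains. The chains of the highest 5% spanned a median of 87286 bp, against 4864 bp for all chains. They thus had more room for summits, and no correction for length was made.

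**Figure D4:**
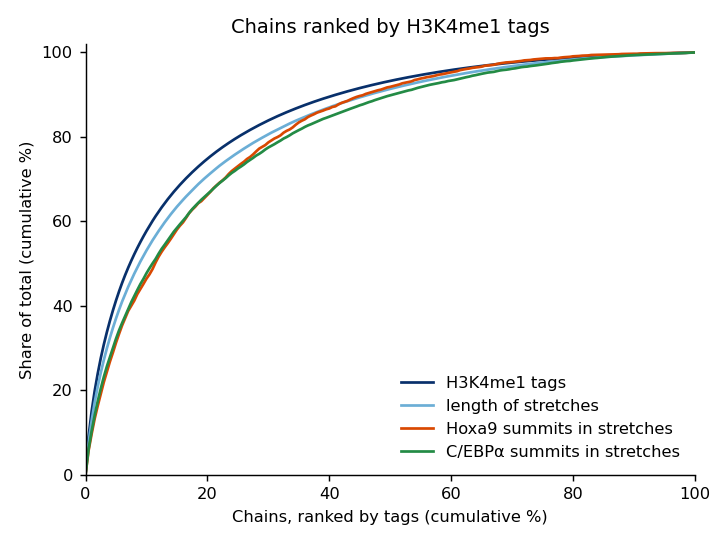
Cumulative share (vertical axis, %) of H3K4me1 tags, stretch length and summits in stretches, over chains ranked from most to fewest tags (horizontal axis, cumulative % of 20331 chains). The curves of both factors lie below those of tags and length over the leading chains: at the highest 5% they reach 31.3% and 32.2%, against 41.3% of tags and 37.0% of length.

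Density along chromosomes was uneven. Over 2482 windows of 1 Mb, the number of stretches had a median of 16, a mean of 24.5 ± 25.7 (SD over windows) and a maximum of 117. No stretch lay in 460 windows (18.5%), of which 403 were beyond the first 3 of their chromosome. The 248 windows with most stretches, 64 or more each, held 32.1% of stretches, 26.6% of C/EBPα summits and 22.7% of Hoxa9 summits. The longest intervals free of H3K4me1 were 9.47 Mb at chr14:87885887-97360865, with 2 Hoxa9 and 6 C/EBPα summits, 7.65 Mb at chr7:39057446-46705417, with 0 of either, and 7.60 Mb at chr8:99020175-106623240, with 4 and 6.

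The fullest windows were chr19:5000001-6000000 with 117 stretches, chr17:29000001-30000000 with 114, chr7:52000001-53000000 with 113, and chr4:134000001-135000000 and chr7:31000001-32000000 with 111 each. They held 29 to 37 C/EBPα summits and 2 to 5 Hoxa9 summits, beside 12 to 46 H3K27me3 regions. Over all windows of 50 or more stretches, the means were 25.3 C/EBPα and 5.61 Hoxa9 summits. The Hoxa9 list is the shorter of the 2, so the counts of the factors do not compare directly. Summit density in stretches fell as windows filled. In windows of 1 to 9 stretches it was 0.0740 Hoxa9 summits per kb (0.0646 to 0.0844), then 0.0557 in windows of 10 to 24, 0.0462 in windows of 25 to 49 and 0.0305 (0.0292 to 0.0318) in windows of 50 or more. C/EBPα went from 0.182 (0.167 to 0.198) to 0.122 (0.120 to 0.125). The median number of H3K27me3 regions per window rose over the same classes from 1 to 26, and its part in the fall was not tested.

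Across windows, the number of stretches gave Spearman's rho = 0.935 with C/EBPα summits, 0.770 with Hoxa9 summits and 0.783 with H3K27me3 regions. The points share the genome's windows, which differ in mappable length, so these values are a description only.

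**Figure D5:**
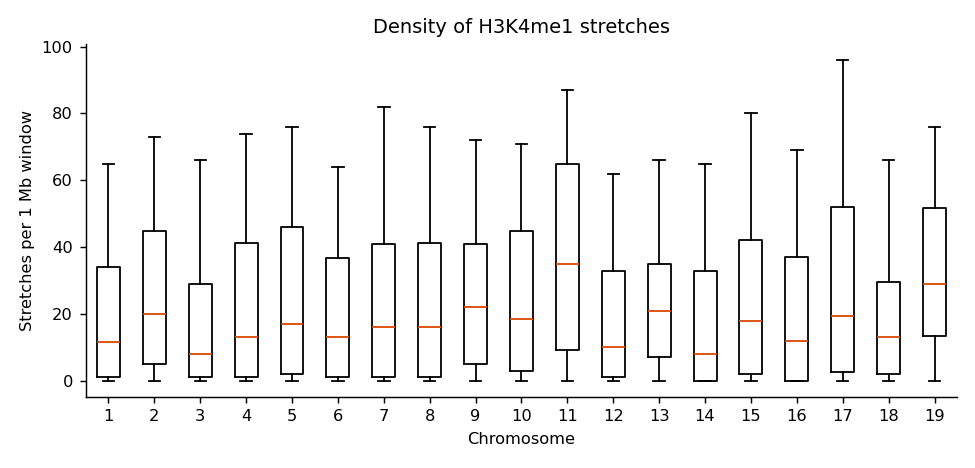
Stretches per 1 Mb window (vertical axis) on each autosome (horizontal axis); the line is the median, the box the middle 50% of windows and the whiskers the 5th and 95th percentiles. Chromosome 11 has the highest median, 35, and chromosomes 3 and 14 the lowest, 8.

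Chromosomes differed in how many stretches they held and in summits per kb of stretch. Stretches per Mb ranged from 18.0 on chromosome 3 to 38.5 on chromosome 11, with a mean over the 19 autosomes of 25.1 and an SD of 5.40. Median span lay between 1146 bp on chromosome 3 and 1376 bp on chromosome 11, and median tags per bp between 0.0410 and 0.0431. Hoxa9 summits per kb of stretch ranged from 0.0280 (0.0240 to 0.0323) on chromosome 17 to 0.0525 (0.0468 to 0.0587) on chromosome 13. C/EBPα summits ranged from 0.120 on chromosome 11 to 0.159 on chromosome 13.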

How the data were processed

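The submitters' processing notes name MACS 1.4, BWA 0.6.2 and CASAVA 1.8.2, and mm9 as the build. The sources used here do not give caller settings, the control library, duplicate handling or library totals. Each deposited list holds, per the file headers, positions, tag counts per region, a score (the −log10 of the p-value times 10), a linear fold enrichment, and a false discovery rate in percent. The H3K4me1 list holds no region under a score of 50.02 or 14 tags, and the authors' counts are not scaled to library size.

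Regions were joined, chained and counted in Python 3.11.15 with numpy, pandas and scipy. Gaps are the free bp between neighbours. Tags per bp are tags over called width. A summit counts as inside when its base lies within the interval. A stretch belongs to the window that holds its midpoint. Densities carry exact Poisson intervals, shares exact Clopper-Pearson intervals and ratios of densities exact conditional binomial intervals, all at 95%. No test was made, since each group is 1 library.

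The members, the classes and the rule for named places (the 8 widest stretches, 8 longest chains, 5 fullest windows, 5 densest stretches of 2 kb or more, 5 stretches and 5 chains with most summits, and 3 longest stretches without summits) were chosen with earlier results of these data known. The comparisons by crowding, gap length and company of summits were added after the values were seen. The joining code was tested on simulated intervals. The gene annotation at hand is of another build than the lists, so places are named by mm9 coordinates without genes and no sequence is shown.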

Additional observations from a re-analysis of the deposited data

How the results depend on the processing

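Of 90 alternatives to 12 results, 46 stayed near the value, 40 moved it and 4 turned a ratio to the other side of 1. No paired analysis was possible because each group is 1 library. A false discovery rate limit of 1% removed 0 regions, since the highest rate in the list is 0.5%, so that setting could change nothing. Joining gaps of 0.5 and 2 kb likewise could not change the number of chains, since both are below the chaining limit. All of these are counted among the 46. All alternatives to the ratios for lone stretches and for gaps under 500 bp were chosen after seeing the data.

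The pooled ratio of closed gaps to regions turned from 1.23 to 0.668 for Hoxa9 with a joining gap of 2 kb. For C/EBPα it turned from 0.825 to 1.15 with 0.5 kb and 1.30 with the upper 50% of regions by score. With regions of at least 10-fold enrichment the C/EBPα ratio was 3.44 (2.18 to 5.21). It moved for Hoxa9 to 1.77 with 0.5 kb, 2.04 with the upper 50% of regions, 6.24 at that fold enrichment and 1.503 with the upper 50% of factor peaks, and for C/EBPα to 0.555 with 2 kb and 0.937 with the upper 50% of factor peaks. For gaps under 500 bp the ratio stayed above 1 in all 10 alternatives run, and moved to 3.52, 8.79 and 2.30 for Hoxa9 and 2.17, 4.94 and 1.37 for C/EBPα (upper 50% of regions, at least 10-fold enriched regions, upper 50% of factor peaks). The ratio of lone to crowded stretches stayed above 1 in all 16 alternatives run. It moved to 1.74 for Hoxa9 with the upper 50% of regions, and for C/EBPα to 1.39 with a chaining gap of 5 kb and 1.63 without chains that meet H3K27me3. With only the regions of at least 10-fold enrichment no chain had 10 stretches, so no ratio could be given.

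Stretches became 70138 and 49981 with joining gaps of 0.5 and 2 kb, which were taken as near. They became 37856 with the upper 50% of regions and 3183 with the 3348 regions of at least 10-fold enrichment. The share of regions joined became 48.9% and 72.2% with joining gaps of 0.5 and 2 kb, 40.3% with the upper 50% and 9.62% at that fold enrichment. Chains became 34705 and 11751 with chaining gaps of 5 and 25 kb, and 2773 at that fold enrichment. With the upper 50% of regions there were 16650 chains, which was taken as near. Median stretches per Mb became 18 and 14 with joining gaps of 0.5 and 2 kb, 12 and 19.5 with windows of 0.5 and 2 Mb, 8 with the upper 50%, 0 at that fold enrichment and 14 with chromosome X. Hoxa9 summits per kb became 0.0356 with a joining gap of 2 kb, 0.0472 with the upper 50% of regions, 0.0605 at that fold enrichment and 0.0221 with the upper 50% of factor peaks. For C/EBPα they became 0.140 and 0.127 with joining gaps of 0.5 and 2 kb, 0.158, 0.176 and 0.0783 in the same order. Why these values moved was not tested, beyond fewer regions or peaks being kept. Sites too weak to be called at this depth are missing from all counts.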

Other observations

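Chromosome X was outside the set described. Its 1185 H3K4me1 regions formed 814 stretches with a median span of 658.5 bp and 0.0358 tags per bp, and 50.5% of its regions were joined. It held 4.89 stretches per Mb, below the lowest autosomal value of 18.0. Its 35 Hoxa9 summits in stretches came to 0.0373 per kb of stretch (0.0260 to 0.0519) and its 147 C/EBPα summits to 0.157 (0.132 to 0.184), both within the range of the autosomes. The number of X chromosomes in the cells is not given in the sources used here.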
